A study of Mus musculus with 9 samples.

Results

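Fc gamma receptors and scavenger receptors, the cell-surface receptors through which macrophages take up antibody-coated and unopsonised particles and modified lipoproteins, were followed in J774A.1, a macrophage line from a tumour of a BALB/c mouse. The genes were chosen by symbol: 10 receptor genes were looked up in a table of 26157 genes, and 9 had a row. Those 9 were the Fc gamma receptor genes Fcgr1, Fcgr3, Fcgr4 and Fcgr2b and the scavenger receptor genes Msr1, Marco, Cd36, Scarb1 and Stab1. Olr1, the lectin-like receptor of oxidised LDL, was not analysed here. Poly-A RNA was sequenced from 9 libraries in 3 groups of 3. Q11 libraries came from cells that received the compound Q11 at the same time as the cytokines IL-4 and IL-13, M2 libraries from cells that received both cytokines at 10 ng/mL, and control libraries from cells in normal culture. The series title calls Q11 an inhibitor of CYP2E1. The sources used here give neither its dose, nor the cytokine dose of the Q11 cells, nor the length of treatment, and nothing in them states that the libraries of a group were separate cultures. The p-values therefore measure the spread between these libraries, which may be technical.

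Fc gamma receptors bind the constant part of IgG. Activating receptors pass the signal through the common gamma chain, which carries an ITAM phosphorylated by Src family kinases and read by Syk, and the result is phagocytosis and an oxidative burst. The inhibitory receptor Fcgr2b carries an ITIM instead and recruits the lipid phosphatase SHIP1, so the balance of both kinds sets the threshold of a macrophage. Scavenger receptors of class A (Msr1, Marco) bind polyanions, bacteria and modified LDL, those of class B (Cd36, Scarb1) bind lipoproteins and fatty acids, and Stab1 clears modified ligands. IL-4 and IL-13 act through STAT6 and drive macrophages into the state called M2.

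The authors' values are TPM, transcript levels scaled by gene length and to the same total in every library, which can be compared between genes. Recovered reads, which are TPM multiplied by exon length and divided by the step of 1 read, numbered 15815847 to 17095787 in 8 libraries and 32193523 in Q11 replicate 2. Q11 replicate 2 held fewer reads than Q11 replicate 3 in 11 of 19252 genes, against 1929 to 2413 genes for each of the other 7 libraries. It was taken to contain the reads of Q11 replicate 3, so the SD of the Q11 libraries rests on samples that are not independent. Tests are given as deposited and, where named "separated", after the reads of replicate 3 were subtracted from replicate 2, which left 15336276 reads there. All 10 macrophage markers listed (among them Lyz2) averaged above 1 TPM. Their summed level was 8680 to 8737 TPM in Q11 libraries, 8291 to 8929 TPM in M2 libraries and 12673 to 13104 TPM in control libraries. That sum is weighted towards the highest genes, and Lyz2 alone averaged 4725 TPM over all libraries. The lower sum therefore need not hold for each marker. Cd68 and Spi1 are also on the list and were named after their values were seen. Neither passed between M2 and control cells (limma, adjusted p = 0.696 and 0.685). The lower sum in M2 cells thus lay in other markers of the list, which are not given singly here. B cell, T and NK cell, hepatocyte and fibroblast markers that had a row all averaged below 1 TPM. The neutrophil markers, of which 3 of 5 had a row, summed to 17.0 to 19.8 TPM in Q11 libraries, 17.2 to 29.5 TPM in M2 libraries and 29.5 to 38.0 TPM in control libraries, and S100a8 alone averaged 24.5 TPM. Dendritic cell markers, of which 3 of 5 had a row, summed to 3.17 to 3.64 TPM in Q11 libraries, 3.12 to 4.24 TPM in M2 libraries and 2.85 to 2.90 TPM in control libraries. Endothelial markers summed to at most 3.56 TPM in any library. All libraries came from 1 macrophage line, so these sums are read as transcript levels of that line and not as shares of cell types. Bulk RNA does not show whether all cells or only some of them changed. The part of these marker differences in the receptor results was not tested.

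The order of the receptor levels was the same in all 3 groups. Fcgr3 was highest, followed by Msr1, Fcgr4, Fcgr2b, Scarb1, Fcgr1, Stab1, Marco and Cd36. Libraries of neighbours in that order overlapped only for Fcgr3 and Msr1 in control cells, where Fcgr3 had 328 to 349.7 TPM and Msr1 had 318 to 332 TPM. In Q11 and M2 cells Fcgr3 stood clear of Msr1, at 344 to 380.1 against 279 to 286 TPM in Q11 libraries and at 353 to 386 against 260.3 to 287 TPM in M2 libraries.

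**Figure D1:**
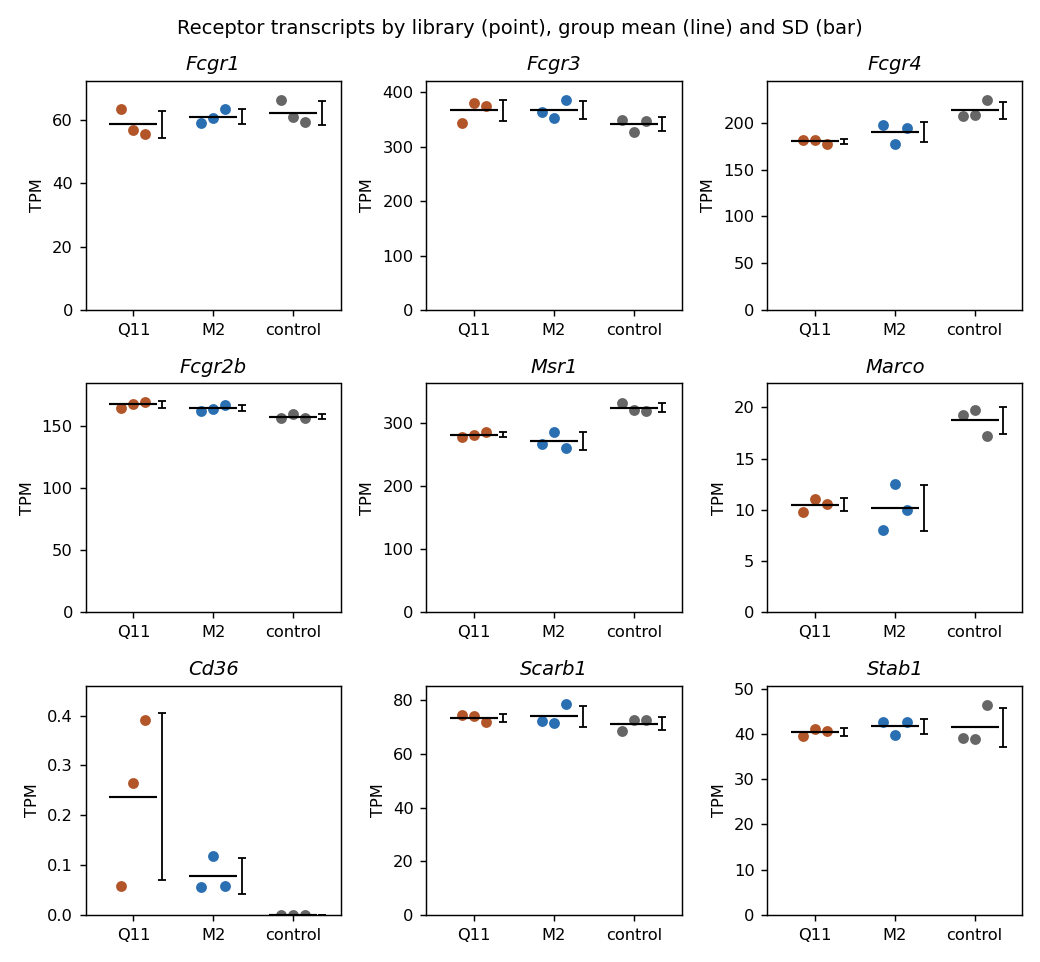
TPM (y axis, from 0, with its own scale per gene) of the 9 receptor genes in each library (points, as deposited) of Q11, M2 and control cells (x axis), with the group mean (line) and SD (bar at the side). Marco, Msr1 and Fcgr4 lie lower in every Q11 and M2 library than in any control library, while Fcgr1, Scarb1 and Stab1 overlap between the groups.

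M2 against control asks what IL-4 and IL-13 did to the receptors. Of the 8 receptor genes that passed the filter of at least 1 TPM in at least 3 libraries, 3 were lower in M2 cells at an adjusted p under 0.05 and 0 were higher. Msr1 and Marco, both of class A, fell under every alternative, and Fcgr4 was lower by a smaller amount whose call was lost under most of them. Among all 14207 genes tested, 5.75% were called lower and 6.88% higher. With the shared reads separated, 2 of the 8 were lower (Msr1 and Marco) and 0 were higher, against 4.3% lower and 4.92% higher among 14015 genes. The median log2 difference of the 8 genes was -0.0068, and that of all genes was -0.0026. In 5 of the 8 tested genes, M2 and control libraries did not overlap (Fcgr3 and Fcgr2b higher, Fcgr4, Msr1 and Marco lower), which held for 28.4% of all genes tested.

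Q11 against M2 asks what the compound changed on top of the cytokines. None of the 8 receptor genes passed, as deposited or separated. Among all genes limma also called 0, which is 0% as deposited and 0% separated. At an unadjusted p under 0.05, 1620 of the 14207 genes lay below the threshold as deposited and 1127 separated, and limma-voom on recovered reads called 2 genes as deposited and 0 separated. None of the 8 tested genes had libraries that did not overlap, a separation that 17.6% of all genes tested showed. The median log2 difference was -0.0073 for the 8 genes and -0.00088 for all genes.

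Q11 against control asks how cells with both cytokines and the compound stood against untreated cells, and it shares its control libraries with M2 against control. The same 3 genes, Fcgr4, Msr1 and Marco, were lower, and 0 of 8 were higher, against 5.53% lower and 5.19% higher among all genes. Separated, the 3 genes were still lower, against 3.93% lower and 3.96% higher. Libraries did not overlap in 4 of the 8 tested genes, Fcgr2b (higher) and Fcgr4, Msr1 and Marco (lower), which held for 32.1% of all genes tested. The median log2 difference was -0.058 for the 8 genes and 0.0035 for all genes.

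**Figure D2:**
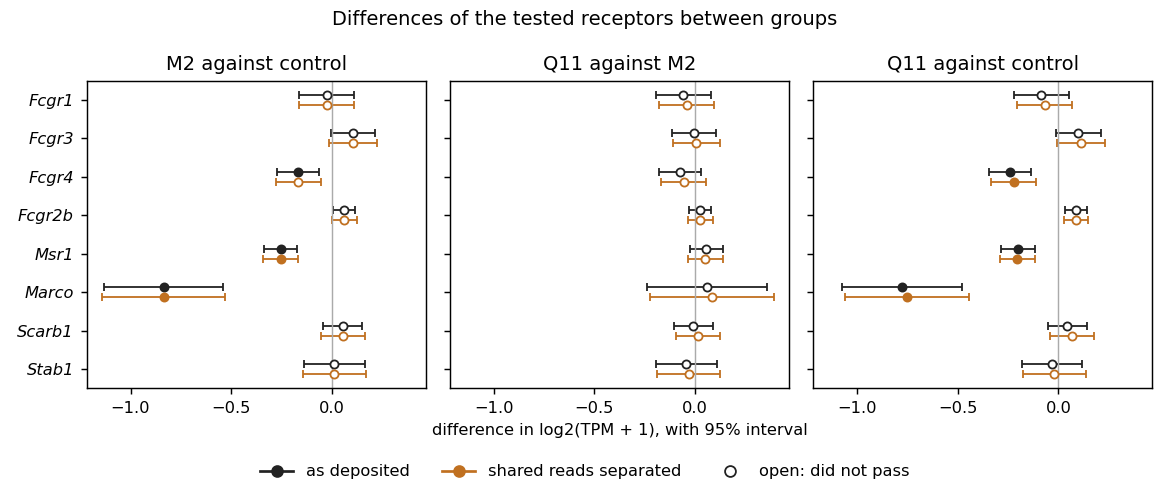
Differences in log2(TPM + 1) (x axis) with 95% intervals for the 8 tested receptor genes (y axis) in the panels M2 against control (left), Q11 against M2 (middle) and Q11 against control (right), as deposited (dark) and with shared reads separated (orange). Filled points passed an adjusted p of 0.05. Marco and Msr1 are filled in both comparisons with control, Fcgr4 in M2 against control is filled as deposited and open separated, and every point of Q11 against M2 is open.

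The genes of the activating receptors and of Fcgr2b are shown first by their promoters, because Fcgr3, Fcgr4 and Fcgr2b lie close together on chromosome 1. Of the 10 genes, 8 matched a promoter window. The sequences are from RefSeq on GRCm38.p6, 250 bases before to 50 after a start, written 5′ to 3′ on the strand of the gene. Capitals mark GAGGAAG, a core of sites of the myeloid factor PU.1, or TTCNNNGAA, the spacing most STAT dimers bind, either of them on either strand. Fcgr1 is read from chr3:96293920-96294219, minus strand, Fcgr3 from chr1:171059354-171059653, minus strand, Fcgr4 from chr1:171018676-171018975, plus strand, and Fcgr2b from chr1:170976022-170976321, minus strand.
Fcgr1: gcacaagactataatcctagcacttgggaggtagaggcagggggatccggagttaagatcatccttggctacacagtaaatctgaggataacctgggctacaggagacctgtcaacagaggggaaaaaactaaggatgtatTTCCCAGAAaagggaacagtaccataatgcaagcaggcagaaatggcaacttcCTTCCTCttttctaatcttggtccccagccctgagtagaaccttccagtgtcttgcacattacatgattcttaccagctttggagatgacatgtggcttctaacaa
Fcgr3: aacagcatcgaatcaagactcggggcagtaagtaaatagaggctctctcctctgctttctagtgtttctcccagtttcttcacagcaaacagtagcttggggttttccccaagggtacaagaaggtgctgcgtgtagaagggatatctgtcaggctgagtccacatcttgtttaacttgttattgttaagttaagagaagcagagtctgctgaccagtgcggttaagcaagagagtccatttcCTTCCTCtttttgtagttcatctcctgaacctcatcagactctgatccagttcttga
Fcgr4: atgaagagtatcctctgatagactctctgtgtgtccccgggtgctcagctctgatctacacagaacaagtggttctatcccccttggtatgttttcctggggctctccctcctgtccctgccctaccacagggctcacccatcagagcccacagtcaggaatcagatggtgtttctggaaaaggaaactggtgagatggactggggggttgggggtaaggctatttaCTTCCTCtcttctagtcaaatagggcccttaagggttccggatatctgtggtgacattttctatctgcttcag
Fcgr2b: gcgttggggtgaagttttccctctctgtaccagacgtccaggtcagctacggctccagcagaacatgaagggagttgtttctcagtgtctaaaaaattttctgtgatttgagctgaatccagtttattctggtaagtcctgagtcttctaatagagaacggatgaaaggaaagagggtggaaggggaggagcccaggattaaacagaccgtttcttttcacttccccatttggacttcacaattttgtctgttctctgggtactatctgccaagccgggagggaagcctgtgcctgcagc
The PU.1 core, on the strand opposite to the gene (CTTCCTC), was found in Fcgr1 at -56 to -50 from the start, in Fcgr3 at -7 to -1 and in Fcgr4 at -23 to -17. No match lay in the window of Fcgr2b. The motif occurs in 13.6% of all 32851 promoter windows of this length. TTCNNNGAA occurs in 8.30% of them and matched Fcgr1 at -109 to -101. The wider spacing that STAT6 prefers, with 1 more base between TTC and GAA, occurs in 6.95%, and TGANTCA, an AP-1 site, in 7.81%, with no match to either in these 4 windows. RefSeq has 2 starts for Fcgr3, and the window of the first is shown. In the Fcgr1 window the PU.1 core and the STAT match do not overlap. The motifs were picked with these sequences in view, and a match is a description of letters, not of binding.

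Fcgr1 encodes the high-affinity receptor CD64 (GRCm38 chr3:96282909-96293969, minus strand). It had 63.5, 56.7 and 55.4 TPM in Q11 libraries, 58.9, 60.5 and 63.4 TPM in M2 libraries, and 66.3, 61.0 and 59.2 TPM in control libraries. All 3 groups overlapped. The log2 difference was -0.03 in M2 against control (95% interval -0.16 to 0.11, adjusted p = 0.839), -0.06 in Q11 against M2 (-0.20 to 0.08, adjusted p = 0.733) and -0.09 in Q11 against control (adjusted p = 0.451).

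Fcgr3 encodes CD16, the low-affinity activating receptor (chr1:171051174-171064935, minus strand), and was the most abundant of the 9 transcripts. Its level was 344, 380.1 and 375 TPM in Q11 libraries, 363, 353 and 386 TPM in M2 libraries, and 349.7, 328 and 347 TPM in control libraries. Every M2 library lay above every control library, with means of 368 ± 16.9 and 342 ± 12.1 TPM (SD, n = 3 each), and Q11 libraries overlapped with both. The difference of 0.11 on the log2 scale in M2 against control did not pass (adjusted p = 0.211, and 0.280 separated), nor did 0.10 in Q11 against control (adjusted p = 0.254). Fcgr3 and Fcgr2b have extracellular parts of near-identical sequence. Of the 1733 windows of 50 bases in Fcgr3 transcripts, 166 (9.58%) also occur in Fcgr2b. Of the 5685 windows in Fcgr2b transcripts, 395 (6.95%) occur in 146 other genes, Fcgr3 among them. Reads that lie wholly within such windows cannot be assigned to 1 gene by their sequence alone. How many reads this concerns was not examined, and the values of Fcgr3 and Fcgr2b may be uncertain for that reason.

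Fcgr4 encodes CD16-2, an activating receptor of intermediate affinity (chr1:171018920-171029761, plus strand), and shares no 50-base window with another gene. It had 182, 181 and 177 TPM in Q11 libraries, 198, 178 and 194 TPM in M2 libraries, and 207, 208 and 224 TPM in control libraries. Both groups with cytokines lay below all control libraries and overlapped with each other. M2 cells averaged 189.8 ± 10.8 TPM and control cells 213 ± 9.54 TPM (SD, n = 3 each), which is 10.9% lower in M2 cells. The log2 difference of -0.17 (95% interval -0.27 to -0.06) had an adjusted p of 0.0467, just under the threshold. The call was lost with the shared reads separated (adjusted p = 0.0691) and in 8 of the 9 fits that left out 1 library, at adjusted p-values of 0.0667 to 0.138. It was kept without M2 replicate 1 (adjusted p = 0.0458). No Q11 value enters this difference, so it stayed at -0.17 separated and in the fits without a Q11 library. There only the spread, which is estimated from all groups, and the adjustment changed. In Q11 against control Fcgr4 fell by 0.24 (adjusted p = 0.0118, and 0.0266 separated), a call lost without Q11 replicate 3 (adjusted p = 0.0534). Q11 against M2 gave -0.07 (-0.18 to 0.03, adjusted p = 0.567), an interval that holds 0.

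Fcgr2b encodes the inhibitory receptor CD32b (chr1:170958617-170976547, minus strand). Relative to its mean it varied least within groups among the Fc gamma receptor genes, with 164, 168 and 169 TPM in Q11 libraries, 162, 164 and 167 TPM in M2 libraries, and 156, 159 and 156 TPM in control libraries. Q11 and M2 libraries overlapped, and all 6 lay above the control libraries. M2 cells averaged 4.42% above control cells, a log2 difference of 0.06 (95% interval 0.01 to 0.12) that did not pass (adjusted p = 0.144). Between Q11 and control cells the difference was 0.09 (0.03 to 0.14), with an adjusted p of 0.0541 as deposited and 0.0916 separated. It passed only without M2 replicate 3 (adjusted p = 0.0492). An antisense gene, Gm38204, overlaps 155 exon bases of Fcgr2b, and the sources used here do not say whether the counting used strand.

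The balance of Fcgr2b against each activating gene was taken within each library. The ratio of Fcgr2b to Fcgr4 was 0.902, 0.924 and 0.956 in Q11 libraries, 0.818, 0.922 and 0.860 in M2 libraries, and 0.753, 0.765 and 0.698 in control libraries. All 6 libraries with cytokines lay above the control libraries, and M2 and Q11 libraries overlapped. The mean ratio was 0.928 ± 0.0271 in Q11 cells, 0.867 ± 0.0523 in M2 cells and 0.739 ± 0.0358 in control cells (SD, n = 3 each). The log2 difference was 0.23 in M2 against control and 0.33 in Q11 against control, each with p = 0.1 in a two-sided exact permutation test, the smallest p that 3 against 3 libraries allow. Over the 9 tests of ratios the adjusted p of both was 0.45, so neither passed. Q11 against M2 gave 0.10 (exact permutation p = 0.2).

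The other ratios overlapped between groups. Fcgr2b to Fcgr1 was 2.86 ± 0.245 in Q11 cells, 2.69 ± 0.0609 in M2 cells and 2.54 ± 0.160 in control cells, with exact permutation p = 0.2 between M2 and control cells, 0.4 between Q11 and M2 cells and 0.3 between Q11 and control cells. Fcgr2b to Fcgr3 was 0.457 ± 0.0192 in Q11 cells, 0.447 ± 0.0158 in M2 cells and 0.461 ± 0.0223 in control cells, with exact permutation p = 0.5, 0.6 and 0.7 in the same order of comparisons. The 4 Fc gamma receptor genes together held 772 ± 16.8 TPM in Q11 cells, 782 ± 27.6 TPM in M2 cells and 773.9 ± 15.8 TPM in control cells. The summed level thus differed between groups by less than its SD. Fcgr2b made up 21.6 ± 0.263% of that sum in Q11 cells, 21.0 ± 0.599% in M2 cells and 20.3 ± 0.655% in control cells.

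**Figure D3:**
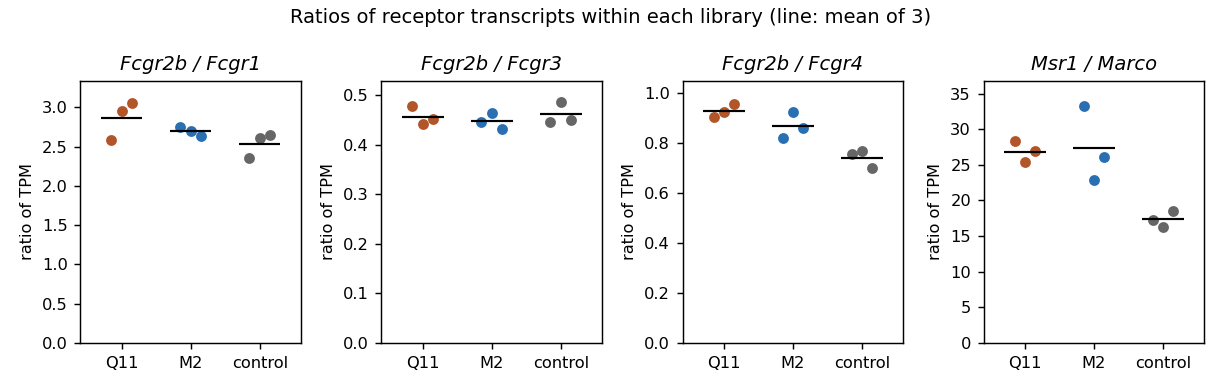
Ratio of TPM (y axis, from 0) within each library (points) of Fcgr2b to Fcgr1, Fcgr3 and Fcgr4 and of Msr1 to Marco, for Q11, M2 and control cells (x axis), with the mean of 3 libraries as a line. Fcgr2b to Fcgr4 and Msr1 to Marco lie higher in all Q11 and M2 libraries than in any control library, and the other ratios overlap.

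Among the class A scavenger receptors, Marco is shown by its promoter because its fold difference was the largest of the 8 tested receptors. The RefSeq sequence on GRCm38.p6 covers chr1:120504975-120505274, minus strand, 250 bases before to 50 after the start. Capitals mark the PU.1 core GAGGAAG at -146 to -140, here on the strand of the gene.
Marco: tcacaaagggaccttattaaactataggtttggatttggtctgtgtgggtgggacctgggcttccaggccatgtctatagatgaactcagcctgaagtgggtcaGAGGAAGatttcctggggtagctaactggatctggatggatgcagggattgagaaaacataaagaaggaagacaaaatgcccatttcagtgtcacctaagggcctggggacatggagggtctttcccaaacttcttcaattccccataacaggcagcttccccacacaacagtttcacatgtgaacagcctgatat
None of the STAT or AP-1 motifs matched this window.

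Marco, the macrophage receptor with collagenous structure (chr1:120474538-120505024, minus strand), binds bacteria and unopsonised particles. It had 9.84, 11.1 and 10.6 TPM in Q11 libraries, 8.06, 12.5 and 10.0 TPM in M2 libraries, and 19.3, 19.7 and 17.2 TPM in control libraries. These levels rested on 92, 203 and 102 recovered reads in Q11 libraries, 78, 113 and 92 in M2 libraries, and 180, 192 and 162 in control libraries. The highest library with cytokines lay below the lowest control library, and M2 libraries were the most spread. Marco averaged 10.2 ± 2.25 TPM in M2 cells and 18.7 ± 1.33 TPM in control cells (SD, n = 3 each), which is 45.6% lower in M2 cells. The log2 difference was -0.84 (95% interval -1.13 to -0.54, adjusted p = 0.00407, and 0.00543 separated). The value was -0.78 in Q11 against control (-1.07 to -0.48, adjusted p = 0.00646, and 0.0104 separated). Q11 against M2 gave 0.06 with a wide interval of -0.24 to 0.36 (adjusted p = 0.891). Its sign turned to -0.09 without M2 replicate 1, the M2 library with the lowest Marco level.

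Msr1, the scavenger receptor CD204 that takes up modified LDL (chr8:39581685-39642673, minus strand), was the highest of the 5 scavenger receptor genes followed here. It had 279, 281 and 286 TPM in Q11 libraries, 268, 287 and 260.3 TPM in M2 libraries, and 332, 321 and 318 TPM in control libraries. All libraries with cytokines lay below all control libraries, and the Q11 values fell inside the range of the M2 values. The mean was 271 ± 13.5 TPM in M2 cells and 324 ± 7.21 TPM in control cells (SD, n = 3 each), 16.2% lower in M2 cells. Msr1 thus had a log2 difference of -0.25 in M2 against control (95% interval -0.34 to -0.17, adjusted p = 0.00244, and 0.00357 separated). It fell by 0.20 in Q11 against control (-0.28 to -0.12, adjusted p = 0.00933, and 0.0124 separated). Q11 against M2 gave 0.05 (-0.03 to 0.14, adjusted p = 0.591).

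Both class A genes were lower in M2 cells, by unequal amounts. The ratio of Msr1 to Marco was 26.9 ± 1.49 in Q11 cells, 27.4 ± 5.30 in M2 cells and 17.3 ± 1.09 in control cells (SD, n = 3 each). Their sum, of which Msr1 made nearly all, was 292 ± 3.86 TPM in Q11 cells, 282 ± 15.3 TPM in M2 cells and 343 ± 8.01 TPM in control cells.

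Cd36, the class B receptor of oxidised LDL and long-chain fatty acids (chr5:17781690-17888801, minus strand), was almost unread. It had 1, 9 and 7 reads in Q11 libraries, 1, 2 and 1 reads in M2 libraries, and 0 reads in each control library. Reads were found in all 6 libraries with cytokines and in no control library, but a count of 0 allows up to 3 reads at this depth. With the shared reads separated, Q11 replicate 2 held 2 reads, and Q11 replicate 3 alone, with 7, stood above that limit. In TPM the levels were 0.0574, 0.264 and 0.390 in Q11 libraries and 0.0554, 0.119 and 0.0583 in M2 libraries, against 0 in the control libraries. Cd36 did not pass the filter and was not tested, and no fold is given. Intervals and limits of this kind cover counting error only.

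Scarb1, the HDL receptor SR-B1 of class B (chr5:125277087-125341094, minus strand), had 74.5, 74.3 and 71.9 TPM in Q11 libraries, 72.2, 71.6 and 78.6 TPM in M2 libraries, and 68.5, 72.6 and 72.8 TPM in control libraries. The groups overlapped in every pairing. The log2 difference was 0.05 in M2 against control (95% interval -0.04 to 0.15, adjusted p = 0.475), and the adjusted p was 0.955 in Q11 against M2 and 0.594 in Q11 against control.

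Stab1, stabilin-1 of class H (chr14:31139013-31168641, minus strand), had 39.4, 41.2 and 40.6 TPM in Q11 libraries, 42.6, 39.8 and 42.7 TPM in M2 libraries, and 39.1, 38.8 and 46.4 TPM in control libraries. Control replicate 3 was the highest of all 9. The log2 difference in M2 against control was 0.01 (95% interval -0.14 to 0.16, adjusted p = 0.935), with adjusted p = 0.827 in Q11 against M2 and 0.832 in Q11 against control. The exons of Nt5dc2, on the opposite strand, overlap 112 bases of Stab1.

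The partners through which the activating receptors signal were also lower in M2 cells where they passed, with 1 exception. Of 23 genes on a list of activating Fc gamma receptor signalling, 21 were tested, and 10 were lower and 1 higher in M2 against control (9 and 1 separated). Among all genes the shares were 5.75% lower and 6.88% higher (4.3% and 4.92% separated). The median log2 difference of the 21 was -0.10, beside -0.0026 for all genes. Against control, 12 were lower and 1 higher in Q11 cells (10 and 1 separated), beside 5.53% and 5.19% of all genes (3.93% and 3.96% separated). In Q11 against M2 0 passed, as among all genes. The Src family kinase Fgr, below the filter, averaged 0.660 TPM in M2 cells and 0.718 TPM in control cells.

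Cybb, the catalytic subunit of the phagocyte NADPH oxidase, had the largest difference of the list. It had 34.1, 37.9 and 37.9 TPM in Q11 libraries, 32.6, 35.2 and 34.6 TPM in M2 libraries, and 77.3, 70.6 and 73.3 TPM in control libraries. The mean in M2 cells was 53.7% below that in control cells, and its log2 difference was -1.09 (95% interval -1.21 to -0.97, adjusted p = 6.80e-06). Ncf1, its cytosolic subunit p47phox, fell by 0.32 in M2 cells (adjusted p = 0.000324). Lyn, the Src family kinase that phosphorylates both ITAM and ITIM, had 96.5, 103 and 99.2 TPM in Q11 libraries, 91.9, 102 and 94.1 TPM in M2 libraries, and 141, 138 and 137 TPM in control libraries. Neither kind of cytokine-treated library reached the control range, and Lyn fell by 0.53 in M2 cells (adjusted p = 0.000102).

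Fcer1g encodes the common gamma chain, without which the activating receptors are not held at the surface. It had 1080, 1039 and 1081 TPM in Q11 libraries, 998, 1091 and 1078 TPM in M2 libraries, and 1252, 1282 and 1237 TPM in control libraries, and it was lower in all 6 libraries with cytokines. Its log2 difference in M2 against control was -0.25 (-0.34 to -0.17, adjusted p = 0.00269, and 0.00715 separated), and in Q11 against M2 0.02 (adjusted p = 0.898). Syk, the kinase that reads the phosphorylated ITAM, averaged 44.4 ± 0.426 TPM in Q11 cells, 46.5 ± 0.337 TPM in M2 cells and 53.3 ± 0.724 TPM in control cells (SD, n = 3 each). Syk fell by 0.19 in M2 cells (adjusted p = 0.00284). In all 9 libraries the TPM of Fcer1g stood above that of each of the 4 Fc gamma receptor genes.

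The inhibitory arm was mixed. Of 9 genes, all tested, 3 were higher and 3 lower in M2 against control (2 and 1 separated), beside 6.88% and 5.75% of all genes (4.92% and 4.3% separated). In Q11 cells 2 were higher and 3 lower than in control cells (2 and 1 separated), beside 5.19% and 5.53% of all genes (3.96% and 3.93% separated), and 0 passed in Q11 against M2. Inpp5d, which encodes SHIP1, averaged 126 TPM in M2 cells and 123 TPM in control cells, a log2 difference of 0.03 that did not pass (adjusted p = 0.518). Cblb, a ubiquitin ligase that restrains signalling, had 13.7, 12.4 and 12.1 TPM in Q11 libraries, 12.6, 13.9 and 15.1 TPM in M2 libraries, and 7.44, 7.94 and 7.62 TPM in control libraries. It rose by 0.78 on the log2 scale in M2 cells (adjusted p = 0.000317). Csk, which switches off Src family kinases, rose by 0.22 (adjusted p = 0.00122). The phosphatase gene Ptpn6 (SHP-1) fell by 0.13 (adjusted p = 0.0170), a call lost without control replicate 1 (adjusted p = 0.0650) or control replicate 3 (adjusted p = 0.0533) and with no mean-variance trend (0.0651). Sirpa, the receptor of CD47, fell by 0.09 (adjusted p = 0.0205), a call lost separated at the same difference (adjusted p = 0.0650). It was also lost without control replicate 1 (0.0795), without control replicate 2 (0.0665) and without M2 replicate 1 (0.0545). Adjusted p-values of 0.0671 with no filter, 0.0737 with only the 2 groups and 0.0973 with no trend also missed the threshold.

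**Figure D4:**
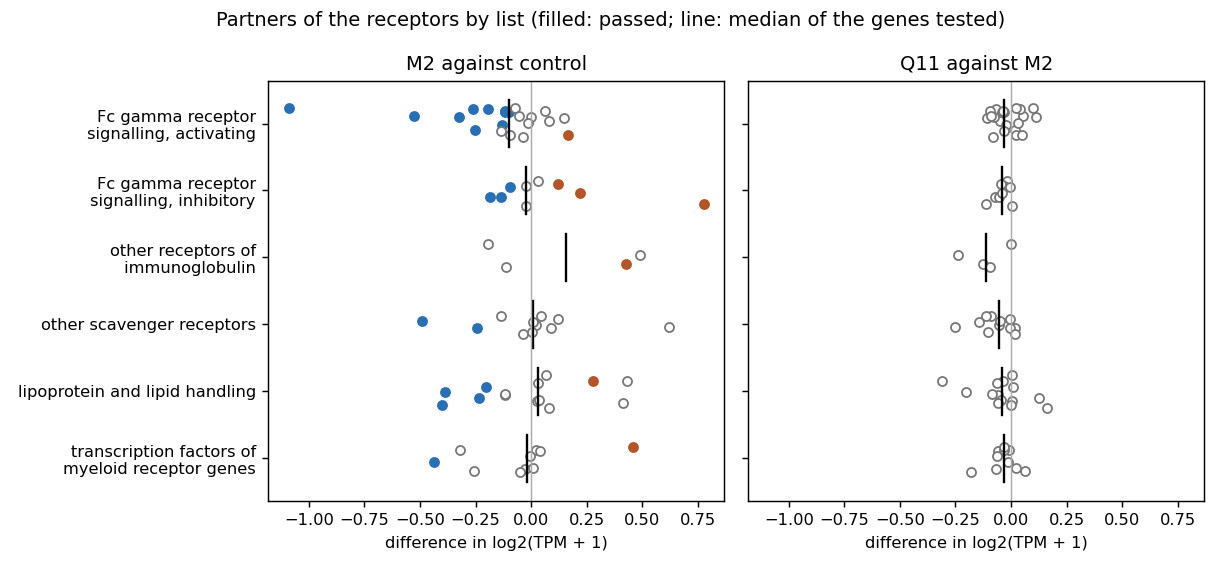
Difference in log2(TPM + 1) (x axis) of each tested gene (points) on 6 lists of receptor partners (y axis) in M2 against control (left) and Q11 against M2 (right), with the list median as a line. Filled points passed an adjusted p of 0.05, blue lower and red higher. In M2 against control 10 genes of the activating list are blue and 1 is red, and in Q11 against M2 every point is open.

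Of 11 other receptors of immunoglobulin on the list, 7 had a row and 4 were tested. In M2 against control 1 was higher and 0 lower, as deposited and separated, beside 6.88% and 5.75% of all genes (4.92% and 4.3% separated). It was Fcgrt, the neonatal Fc receptor that recycles IgG inside the cell, with 65.8, 67.3 and 66.3 TPM in Q11 libraries, 70.4, 68.4 and 79.9 TPM in M2 libraries, and 51.8, 54.2 and 55.4 TPM in control libraries. It rose by 0.43 in M2 cells (95% interval 0.30 to 0.55, adjusted p = 0.00149). In Q11 against M2 all Q11 libraries lay below all M2 libraries, and the difference of -0.13 did not pass (adjusted p = 0.430).

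Of 18 other scavenger receptors on the list, 17 had a row and 11 were tested, and in M2 against control 2 were lower and 0 higher, as deposited and separated, beside 5.75% and 6.88% of all genes (4.3% and 4.92% separated). Cxcl16, which as a membrane protein takes up oxidised LDL and phosphatidylserine, had 94.1, 93.0 and 95.1 TPM in Q11 libraries, 95.3, 98.7 and 98.5 TPM in M2 libraries, and 138, 142 and 132 TPM in control libraries. Its log2 difference was -0.49 (adjusted p = 3.25e-05). Colec12, a scavenger receptor with a collagenous stalk and a lectin domain, fell by 0.24 in M2 cells (adjusted p = 0.000484). Cd68, the lysosomal receptor, was by far the highest of that list at 2591 TPM in M2 cells and 2554 TPM in control cells, and did not pass (adjusted p = 0.696).

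Genes that handle the lipid brought in by scavenger receptors gave 4 lower and 1 higher of 14 tested in M2 against control, as deposited and separated, beside 5.75% and 6.88% of all genes (4.3% and 4.92% separated). In Q11 against control 5 were lower and 2 higher, with 5 and 1 separated, beside 5.53% and 5.19% of all genes (3.93% and 3.96% separated). Lipa, the lysosomal acid lipase that frees cholesterol from lipoprotein esters, fell by 0.20 in M2 cells (adjusted p = 0.00133). Abca1, the exporter of cholesterol to apolipoprotein A-I, averaged 107 ± 5.76 TPM in Q11 cells, 107 ± 2.80 TPM in M2 cells and 142 ± 9.59 TPM in control cells (SD, n = 3 each), and fell by 0.40 in M2 cells (adjusted p = 0.00195). Lpl, lipoprotein lipase, fell by 0.24 in M2 cells (adjusted p = 0.00782), and in Q11 against control it did not pass as deposited or separated (adjusted p = 0.143 and 0.182), but passed with limma-voom on recovered reads (0.0213, and 0.0289 separated). Npc1, which moves cholesterol out of lysosomes, rose by 0.28 in M2 cells (adjusted p = 0.00601), and its call in Q11 against control was lost without Q11 replicate 2 (adjusted p = 0.0563).

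Of 10 genes for transcription factors of myeloid receptor genes, 1 was higher and 1 lower in each comparison with control, as deposited and separated, and 0 passed in Q11 against M2. These counts are near the shares of all genes, which were 6.88% higher and 5.75% lower in M2 cells (4.92% and 4.3% separated) and 5.19% and 5.53% in Q11 cells (3.96% and 3.93% separated). Irf8, an interferon regulatory factor of the myeloid lineage, fell by 0.44 in M2 cells (adjusted p = 0.000463). Spi1, which encodes PU.1, averaged 341 TPM in M2 cells and 347 TPM in control cells, and Stat6 averaged 155 TPM in both, and neither passed (adjusted p = 0.685 and 0.926).

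The genes with a pattern most like that of Msr1 over the 9 libraries, among 9394 genes averaging at least 5 TPM, were Napg (Pearson r = 0.989), Slc36a4 (0.989) and Ccl9 (0.987), and separated values gave the same 3 genes. Ccl9, a chemokine gene, averaged 783 TPM in Q11 cells, 739 TPM in M2 cells and 1063 TPM in control cells. For Marco they were the lectin gene Clec4d (0.975), Efr3b (0.975) and Lyn (0.974), and separated Efr3b (0.973), Lyn (0.972) and Slc44a1 (0.972). Clec4d averaged 209.5 TPM in Q11 cells, 201 TPM in M2 cells and 337 TPM in control cells. These correlations describe 9 libraries that share the same 3 groups, and no test was made of them.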

How the data were processed

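The deposited data are 1 table from the authors, in TPM, with 26157 genes and 9 libraries, each column summing to 1000000. HISAT2 2.0.5, StringTie 1.3.3b and the build GRCm38 (mm10) are named per the submitters' processing notes. Per the labels' protocols, mRNA was selected on poly-T beads and prepared with a NEBNext Ultra kit. The sources used here do not name the annotation release, counting settings or strand use. GENCODE M21 exon lengths, which matched 25594 IDs (97.8%), were used to turn TPM into recovered reads. With a tolerance of 0.1 read, 98.8% to 99.1% of values of at most 20 reads came out whole.

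Values were taken as log2(TPM + 1), a scale that understates the changes of low genes, for genes that reached 1 TPM in 3 or more libraries. limma 3.58.1 in R 4.3.3 was fitted to all 9 libraries with 1 mean per group and a mean-variance trend (6 residual degrees of freedom, median prior 2.85). Tests are two-sided, with Benjamini-Hochberg adjustment over all 14207 genes tested (14015 separated) and a threshold of 0.05. Ratios were compared by exact permutation of libraries. The fit was also run on simulated data of independent libraries with changes in M2 only, and the outcome is not reported here. That simulation does not cover libraries that share reads or are technical replicates.

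The receptor genes and partner lists were chosen with earlier results of these data known. From each list up to 4 genes past the threshold in M2 against control are named by smallest p, with Fcer1g, Syk and Inpp5d whatever their values. Fgr, Cd68, Spi1 and Stat6 were named outside that rule after their values were seen, and some genes on the lists are not reported here by name. Alternatives were another pseudocount (0.1), no filter, a filter at a mean of 5 TPM, quantile normalization, separated reads, limma-voom on recovered reads, a replicate block, 2-group fits, no trend, and leaving out each library.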

Additional observations from a re-analysis of the deposited data

How the results depend on the processing

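Under all alternatives, those that left out 1 library included, Msr1 and Marco kept direction and call in both comparisons with control. Fcgr4 in M2 against control stayed at -0.17 on the log2 scale but missed the threshold with no filter on low values (adjusted p = 0.0945), separated (0.0691), with only the 2 groups (0.114), with no trend (0.102) and with the replicate block (0.0699), and left-out libraries gave -0.20 to -0.12. It passed with pseudocount 0.1 (0.0472), a filter at 5 TPM (0.0340), quantile normalization (0.0309) and limma-voom (0.0226, and 0.0370 separated). In Q11 against control left-out libraries gave -0.26 to -0.20 for Fcgr4 and 0.078 to 0.099 for Fcgr2b. Differences near 0 changed sign. Fcgr3 in Q11 against M2 became 0.014 with quantile normalization, 0.0068 separated, 0.0038 with limma-voom and 0.0021 with limma-voom separated, and Scarb1 became 0.013 separated and 0.0083 with limma-voom separated. With libraries left out, the ranges were -0.060 to 0.020 for Fcgr1 and -0.031 to 0.094 for Stab1 in M2 against control, -0.033 to 0.040 for Fcgr3, -0.085 to 0.20 for Marco and -0.033 to 0.033 for Scarb1 in Q11 against M2, and -0.075 to 0.050 for Stab1 in Q11 against control. The log2 difference in the ratio of Fcgr2b to Fcgr3 ranged over -0.0031 to 0.056 in Q11 against M2 and -0.046 to 0.027 in Q11 against control. The cause of these changes was not tested.

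The number of all genes called in M2 against control was 1794 (1054 with only the 2 groups, 1139 without control replicate 1, 1161 without control replicate 3, and 1139 to 1651 over left-out libraries). In Q11 against M2 it was 0 (3 with no filter, 2 with limma-voom, 2 with no trend, 0 to 2 over left-out libraries). In Q11 against control it was 1524 (798 without Q11 replicate 2, 776 without Q11 replicate 3, and 776 to 1613 over left-out libraries). Correlations of same-numbered deviations ran from -0.03 to 0.04, and those of differently numbered ones from -0.05 to 0.06. These values show no pairing by number over all genes. They cannot tell whether same-numbered libraries were handled together. The replicate block gave 1335, 0 and 1086 genes in the order above and changed no receptor call other than Fcgr4 in M2 against control. Depth limits Cd36. Its reads lay under the limit of 3 that a count of 0 allows, except in Q11 replicates 2 and 3 (9 and 7 as deposited). Separated, Q11 replicate 2 held 2 reads.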
